A study of Mus musculus with 12 samples.

Results

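The vacuolar-type ATPase (V-ATPase) is a rotary proton pump made of a cytoplasmic V1 sector, which splits ATP, and a membrane-embedded V0 sector, which carries protons into lysosomes, endosomes and synaptic vesicles. In neurons the gradient it builds powers the loading of neurotransmitter into synaptic vesicles. The set described here was 8 gene names of the 55678 in the expression table: the V0 genes Atp6v0a1, Atp6v0a2, Atp6v0b, Atp6v0c, Atp6v0d1, Atp6v0e and Atp6v0e2, and Atp6v0c-ps2, a copy of Atp6v0c. Members were taken by gene name, with all rows of a name summed, and the set was chosen by the TPM values of Atp6v0c and its copy, whose sum differed between strains. Differences between strains are therefore given for these genes as a description, without a test. All 8 members were among the 16423 genes that passed the filter of at least 1 TPM in at least 3 libraries, but Atp6v0c-ps2 passed through the BALB/c libraries alone.

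RNA from the medial prefrontal cortex was sequenced in 12 mice, 3 in each of 4 groups: C57BL/6JmsSlc (B6) controls, B6 after chronic restraint stress (CRS), BALB/c controls and BALB/c after CRS. CRS was 6 h of restraint a day for 21 days, controls were handled without restraint, and the mice were 9 to 10 weeks old. Both treatment groups had been through behavioural testing, and a 1.5 mm punch was taken from brain sections, so each library mixes all cell types of the punch and may include neighbouring tissue. Animals are named below by the number in their label, and no label says whether a number links animals. Values are TPM, transcript abundances scaled to a fixed total per library, which corrects for transcript length, so that levels can be compared between genes. TPM keeps no read number. The labels give about 6 Gb per sample, but the reads behind each value are unknown, and the error given is the SD over animals.

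Markers of excitatory neurons were present in every library, with sums over 6 genes of 1243 to 2742 TPM in B6 controls, 1261 to 1999 in B6 CRS, 1768 to 2427 in BALB/c controls and 2062 to 2456 in BALB/c CRS. Sums over 7 myelin genes ran from 2495 to 9544 TPM in B6 controls, 2715 to 7745 in B6 CRS, 474 to 3037 in BALB/c controls and 534 to 1435 in BALB/c CRS. Sums over 6 striatal genes ran from 174 to 2459, 756 to 1999, 82.2 to 315 and 104 to 145 TPM in the same order. Sums over 6 astrocyte genes ran from 805 to 903, 771 to 870, 648 to 735 and 558 to 801 TPM. Those over 6 interneuron genes ran from 807 to 884, 797 to 1123, 661 to 794 and 679 to 842 TPM. No gene of these lists was at 0 in all libraries. Myelin and striatal sums thus tended to be lower in BALB/c and varied widely within B6. They overlapped between strains in controls but not under CRS, where excitatory neuron sums were higher in BALB/c without overlap. Astrocyte and interneuron sums were lower in BALB/c without overlap in controls, but overlapped under CRS. Microglia, endothelial and choroid plexus sums overlapped between strains in both. The part of cell composition in any strain difference below was not tested. In these bulk samples, fewer cells of a type and less RNA per cell cannot be told apart.

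Atp6v0c encodes the proteolipid c subunit, the main component of the rotating membrane ring. In GRCm38 the gene lies at chr17:24163866-24169702 on the minus strand. Atp6v0c-ps2 is annotated as a processed pseudogene at chr6:37806086-37806550 on the plus strand, a copy without introns whose 465 bases align end to end with the 465-base Atp6v0c coding sequence. The 2 sequences differ at 1 base, T111C, counted from 1 at the A of the ATG, with the Atp6v0c base first. This is the third base of codon 37, and the copy has 0 amino acid differences over 155 codons and 0 stop codons. The sequences below are coding bases 51 to 200 in the GRCm38 annotation (GENCODE M21), 5′ to 3′ on the coding strand. They are shown because this stretch holds the single base that tells the copy from its parent in this annotation. No BALB/c sequence was examined, so whether either gene has the same bases in BALB/c was not tested. Capitals mark the bases at which the sequences differ.
Atp6v0c: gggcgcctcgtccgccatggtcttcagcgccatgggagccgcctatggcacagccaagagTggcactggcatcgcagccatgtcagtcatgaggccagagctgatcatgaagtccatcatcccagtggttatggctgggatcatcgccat
Atp6v0c-ps2: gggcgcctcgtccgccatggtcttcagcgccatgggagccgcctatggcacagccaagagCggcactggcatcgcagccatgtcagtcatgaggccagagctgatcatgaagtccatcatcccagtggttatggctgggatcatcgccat
Atp6v0c-ps1: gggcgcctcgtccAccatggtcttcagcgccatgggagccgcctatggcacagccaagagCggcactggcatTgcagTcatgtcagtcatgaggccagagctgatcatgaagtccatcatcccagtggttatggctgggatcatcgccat
The third sequence is a further annotated pseudogene, Atp6v0c-ps1, at chr7:4412438-4412900, which carries G64A, T111C, C123T and C128T in this stretch. Of the 316 windows of 150 bases in the copy, the read length, 111 (35.1%) cover the difference, and the other 205 match Atp6v0c letter for letter. Those 205 make up 19.8% of the 1034 windows of that length in the main Atp6v0c transcript. Reads were paired, so a pair can reach beyond a single window. How reads shared by the 2 genes were divided was not given in the sources used here, so the split of their TPM is uncertain.

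Atp6v0c-ps2 was listed at 0 TPM in all 6 B6 libraries. In BALB/c controls it stood at 764.7, 667.3 and 688.3 TPM in animals 5, 9 and 10 (706.8 ± 51.3, SD, n = 3). In BALB/c CRS it stood at 639.3, 777.6 and 682.1 TPM in animals 12, 13 and 15 (699.7 ± 70.8, SD, n = 3). All BALB/c libraries were high and all B6 libraries were at 0, and no fold is given against a group at 0. Atp6v0c-ps1 was listed at 0 except for 0.339 TPM in BALB/c CRS animal 15. On the deposited scale, the 7 other members overlapped between the 6 BALB/c and the 6 B6 libraries, whereas 8.95% of all tested genes did not. The copy did not overlap, but its values helped choose the set and it passed the filter through BALB/c alone, so it is not counted. Atp6v0b did not overlap either when TPM were rescaled without mitochondrial transcripts, Bc1 and 18S rRNA. It stood at 476 to 513 in B6 and 521 to 610 in BALB/c on that scale. With median-of-ratios scaling, a further way to put libraries on a common scale, it overlapped. There it stood at 311 to 341 in B6 and 337 to 416 in BALB/c. The share of all genes without overlap was not computed on either of these scales, and nothing is read from the change.

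Atp6v0c itself was the highest member in every library. In B6 controls it stood at 955.6, 1179.8 and 1404.8 TPM in animals 2, 3 and 9 (1180 ± 225, SD, n = 3), and in B6 CRS at 1011.1, 1055.2 and 1273.5 TPM in animals 12, 13 and 14 (1113 ± 141, SD, n = 3). In BALB/c controls it stood at 1061.3, 929.2 and 1001.4 TPM (997 ± 66.1, SD, n = 3), and in BALB/c CRS at 981.9, 1054.3 and 1014.3 TPM (1017 ± 36.3, SD, n = 3). The strains overlapped, and the BALB/c libraries sat within a narrower range.

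Added together, Atp6v0c and the copy gave 955.6 to 1404.8 TPM in B6 and 1596.6 to 1831.9 TPM in BALB/c, with no overlap. The BALB/c mean was 1.44 times the B6 mean in controls and 1.54 times under CRS, or 0.55 and 0.63 on the scale log2(TPM + 1). The median of all tested genes differed by -0.10 in controls and -0.06 under CRS on that scale. A sum of TPM counts a short and a long transcript alike. The copy has 465 annotated bases and the main Atp6v0c transcript 1183, so a read on the copy adds more TPM than a read on the parent. With the copy weighted by the ratio of these lengths, a choice made after seeing the data, the log2 difference between strains was 0.13 in controls and 0.22 under CRS. With 200 bases taken off both lengths it was 0.025 and 0.12, and for Atp6v0c without the copy it was -0.23 and -0.12. With either weighting the values of the strains overlapped, at 1191.5 to 1361.9 TPM in BALB/c by annotated lengths and 1109.1 to 1267.4 with the shortened ones. The plot of Atp6v0c and its copy shows these values library by library.

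**Figure D1:**
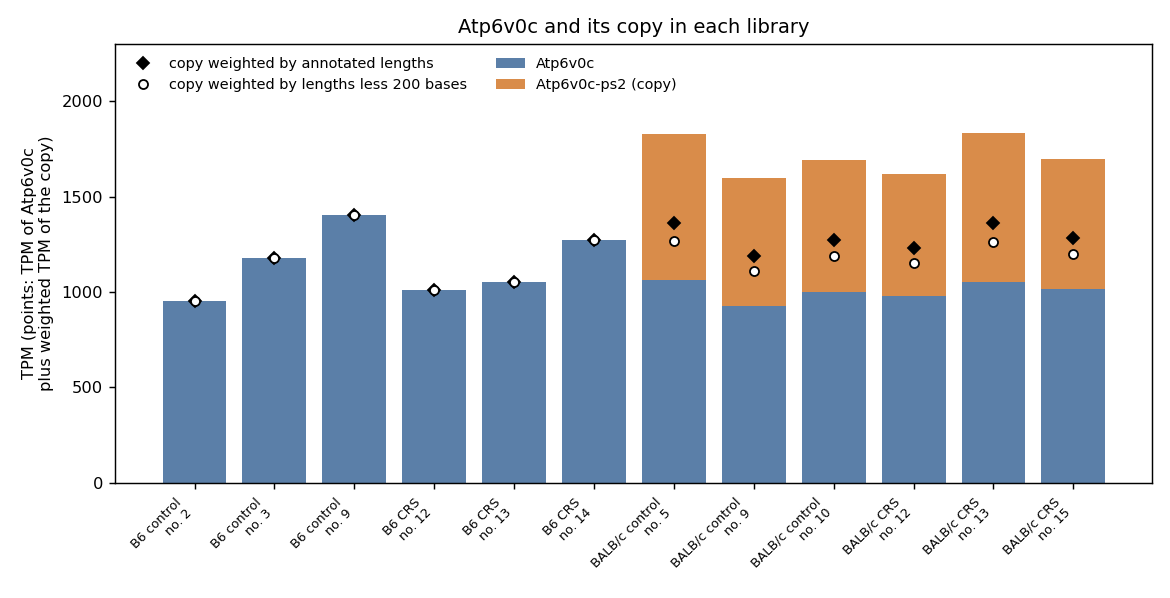
TPM of Atp6v0c (blue) and Atp6v0c-ps2 (orange, stacked) in each of the 12 libraries, with points for Atp6v0c plus the copy weighted by length. The stacked BALB/c bars reach 1596.6 to 1831.9 TPM, above all B6 bars, whereas the weighted BALB/c points lie within the B6 range of 955.6 to 1404.8.

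The copy held a steady share of the pair in BALB/c, from 39.4% in CRS animal 12 to 42.4% in CRS animal 13. Setting Atp6v0c against a V0 partner in the same library removes differences in scale between libraries. Atp6v0d1, the main partner used, encodes the d subunit, which joins the c ring to the central stalk. The ratio of Atp6v0c to Atp6v0d1 was 4.90 to 5.30 in B6 and 4.01 to 4.55 in BALB/c. With the copy added at full TPM the BALB/c ratio was 6.89 to 7.68. With the copy weighted by annotated lengths it was 5.14 to 5.78, mostly above B6 with some overlap. By the shortened lengths it was 4.79 to 5.39, overlapping B6. Against Atp6v0b as partner, Atp6v0c gave 2.95 to 3.83 in B6 and 2.67 to 2.91 in BALB/c. The copy added at full TPM raised the BALB/c ratio to 4.42 to 5.00. Weighted ratios were not computed for that partner, so their place against B6 is given for Atp6v0d1 alone. Atp6v0c plus the copy made up 49.0% to 51.9% of V0 TPM in B6 and 59.4% to 60.4% in BALB/c, and Atp6v0c made up 46.0% to 47.5% in BALB/c with the copy left out of both. These ratios use the values that chose the set and are descriptions.

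The a subunit forms the stationary proton half-channels and sets where the pump goes; Atp6v0a1 is the form known from synaptic vesicles. Atp6v0a1 ran from 159.3 TPM in B6 control animal 2 to 251.3 TPM in BALB/c CRS animal 15, with group means of 197 ± 39.0 in B6 controls, 191 ± 33.6 in B6 CRS, 223 ± 23.0 in BALB/c controls and 232 ± 33.1 in BALB/c CRS (SD, n = 3). Atp6v0a2, the form known from Golgi and endosomes, was the lowest member, at 13.6 to 25.6 TPM. Its group means in the same order were 19.3 ± 3.34, 20.6 ± 4.32, 16.6 ± 0.321 and 16.3 ± 2.58 TPM (SD, n = 3). Summed over rows, both overlapped between strains. The main row of Atp6v0a2, 72.0% to 96.8% of its TPM, stood at 16.0 to 21.2 TPM in B6 and 12.1 to 15.1 in BALB/c. Minor rows of Atp6v0b also separated the strains, in opposite directions. They stood at 2.82 to 5.46 TPM in B6 and 8.93 to 13.6 in BALB/c, and at 20.7 to 27.7 in B6 and 11.8 to 19.0 in BALB/c. How often single rows separate the strains over all genes was not computed, and nothing is read from these rows.

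Atp6v0b encodes the c″ proteolipid of the ring and varied least within B6 on the deposited scale. Its group means were 346 ± 21.8, 336 ± 30.3, 355 ± 9.06 and 362 ± 10.3 TPM in the order B6 control, B6 CRS, BALB/c control and BALB/c CRS (SD, n = 3). Atp6v0d1 stood at 234 ± 45.5, 218 ± 21.5, 234 ± 14.8 and 231 ± 15.8 TPM in the same order (SD, n = 3).

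The small membrane subunit e is encoded by Atp6v0e and by Atp6v0e2, the latter being the form known to be enriched in brain. Atp6v0e stood at 39.3, 38.4 and 23.5 TPM in B6 controls 2, 3 and 9, at 30.9, 35.7 and 33.6 TPM in B6 CRS 12, 13 and 14, and at 22.8 to 25.6 TPM over the BALB/c libraries. The BALB/c mean was 0.73 times the B6 mean in controls and 0.70 times under CRS. Under CRS the strains did not overlap, which held for 1 of the 7 members other than the copy and for 29.3% of all tested genes. In controls they overlapped through B6 animal 9, as did the strains for all 7 of these members, whereas 22.9% of all tested genes did not overlap. Atp6v0e2 overlapped between strains, with group means of 302 ± 62.7, 271 ± 23.6, 285 ± 13.4 and 285 ± 13.2 TPM in the order above (SD, n = 3). Atp6v0e2 exceeded Atp6v0e by 6.43 to 15.8 times in B6 and by 11.1 to 13.0 times in BALB/c.

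**Figure D2:**
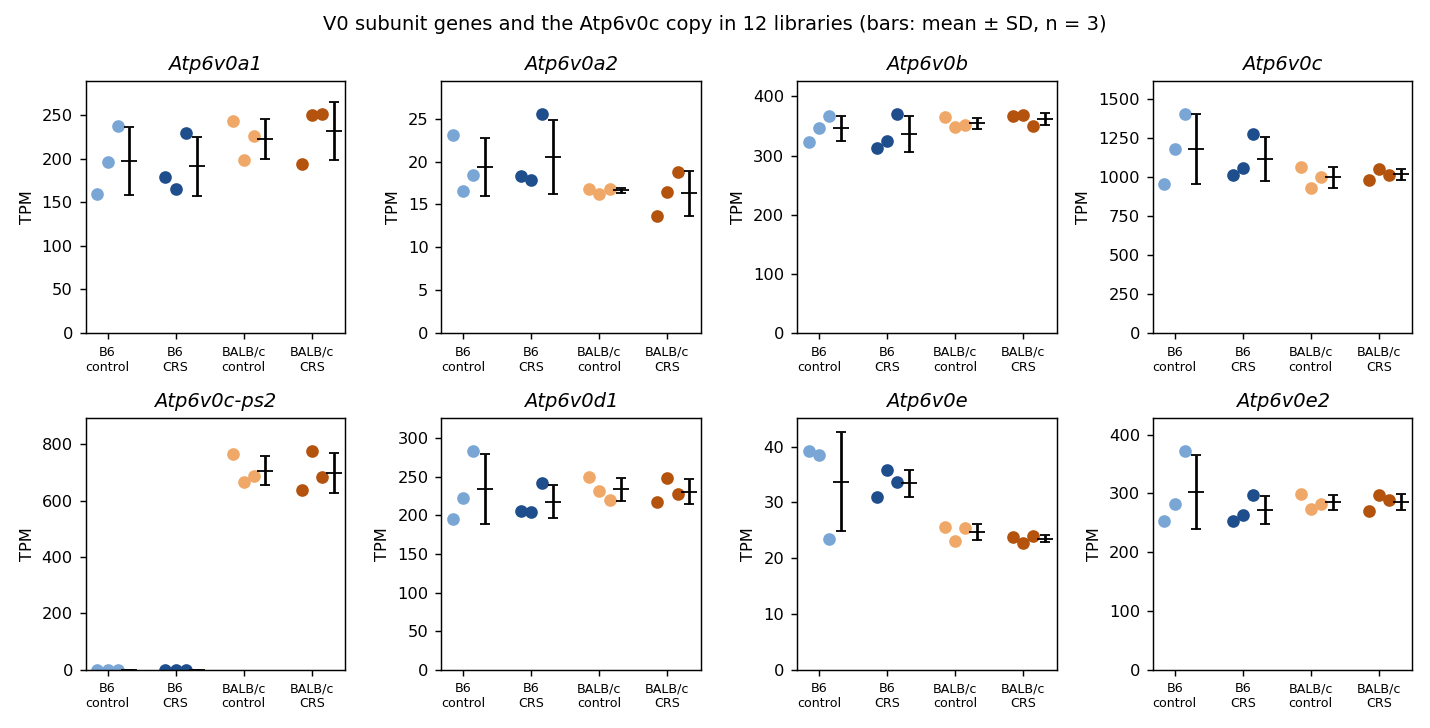
TPM of each member in the 12 libraries (points, 3 per group), with the mean and SD of each group as bars; each panel has its own axis from 0. Atp6v0c-ps2 is at 0 in all 6 B6 libraries and between 639.3 and 777.6 TPM in BALB/c, and Atp6v0e is lower in BALB/c except against B6 control animal 9.

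Ordered by mean level over 12 libraries, the genes ran Atp6v0c, Atp6v0c-ps2, Atp6v0b, Atp6v0e2, Atp6v0d1, Atp6v0a1, Atp6v0e and Atp6v0a2. Neighbours with overlapping ranges were Atp6v0b and Atp6v0e2 (Atp6v0b higher in 11 of 12 libraries), Atp6v0e2 and Atp6v0d1 (12 of 12), Atp6v0d1 and Atp6v0a1 (9 of 12), and Atp6v0e and Atp6v0a2 (12 of 12). The place of the copy is an average of 0 in B6 and the second highest level in BALB/c.

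Within groups, several V0 genes went up and down together. Atp6v0a1, Atp6v0b, Atp6v0c, Atp6v0d1 and Atp6v0e2 were all highest in animal 9 among B6 controls, in animal 14 among B6 CRS and in animal 5 among BALB/c controls. Among BALB/c CRS, animal 13 was highest for 4 of these 5, and Atp6v0a1 was the exception. Atp6v0e was at its group's lowest in B6 control animal 9 and BALB/c CRS animal 13, but at its group's highest in BALB/c control animal 5. These same 4 libraries also gave the largest share of TPM to genes other than mitochondrial transcripts, Bc1 and 18S rRNA in their groups: 71.9%, 72.4%, 67.1% and 69.8%, against 60.2% to 67.6% in the other 8. When TPM were rescaled without those RNAs, animals 9 and 14 of B6 stayed highest for 4 and 5 of the 5 genes, whereas in BALB/c the highest Atp6v0c moved to animals 10 and 12. B6 control animal 9 also had the highest excitatory neuron score, a mean of log2(TPM + 1) over the markers, at 7.70, and the lowest striatal score of B6, at 3.59. B6 control animal 2, the lowest for Atp6v0c, had scores of 6.31 and 7.85. The part of cell composition in these shared swings was not tested.

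**Figure D3:**
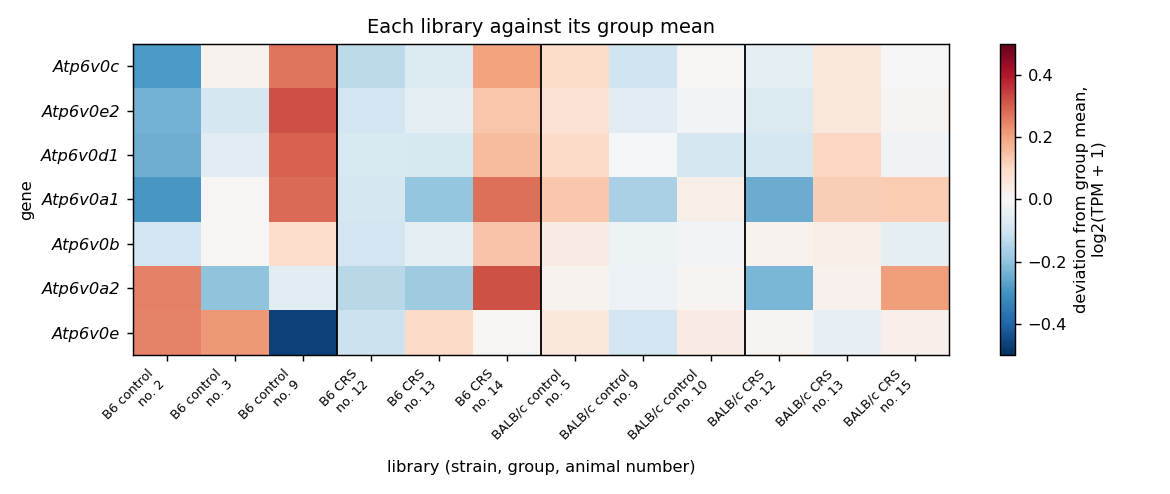
Difference of each library from its group mean on the log2(TPM + 1) scale for 7 members (rows) in 12 libraries (columns, groups divided by lines); red is above and blue below the group mean. Atp6v0c, Atp6v0e2, Atp6v0d1 and Atp6v0a1 are red together in B6 control animal 9 and B6 CRS animal 14, and Atp6v0e is blue in the former.

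The first question of the design was whether restraint changed the pump's membrane sector. The copy, at 0 in every B6 library, could be tested in BALB/c alone. None of the 8 members passed an adjusted p of 0.05 in limma (Benjamini-Hochberg over all genes) for CRS against control in BALB/c, where 0.00609% of all tested genes did. None of the 7 others passed in B6 (0% of all tested genes), for the CRS effect averaged over strains (0.00609%) or for the interaction, the CRS effect in BALB/c minus that in B6 (0%). In limma, 0 of these values had an unadjusted p under 0.05. Of all 16423 tested genes, 792 had one for CRS in B6 and 497 for CRS in BALB/c. For the average over strains 849 had one, and for the interaction 443. Without the copy, the log2 differences between CRS and control ran from -0.14 (Atp6v0e2) to 0.08 (Atp6v0a2) in B6 and from -0.07 (Atp6v0e) to 0.05 (Atp6v0a1) in BALB/c. Over these genes, the lowest and highest limits of the single 95% intervals were -0.42 and 0.44 in B6 and -0.43 and 0.42 in BALB/c; the plot of restraint effects gives the interval of each gene. The median over the 7 genes was -0.04 in B6 and 0.00266 in BALB/c, beside 0 and 0.05 over all tested genes.

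For Atp6v0c the difference was -0.07 (95% interval -0.37 to 0.22) in B6 and 0.03 (-0.26 to 0.32) in BALB/c. For the copy in BALB/c it was -0.02 (-0.24 to 0.20). For the sum of Atp6v0c and the copy, the CRS effect averaged over strains was -0.03 (-0.24 to 0.18), with an adjusted p of 0.989 in limma. CRS libraries lay wholly above or below the controls for 0 of the 7 members other than the copy in B6, where 8.33% of tested genes did so, and for 0 of 8 members in BALB/c, where 7.39% did. Interaction estimates without the copy ran from -0.12 to 0.14, with intervals from -0.63 to 0.61. The direction of 27 of the 29 CRS and interaction values of single members changed under at least 1 alternative, and no direction is read from them.

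**Figure D4:**
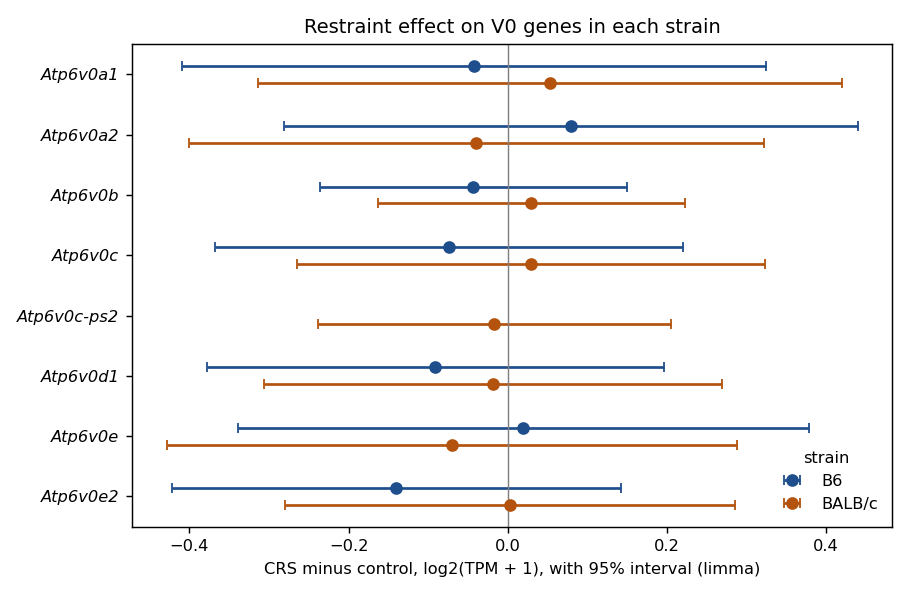
Difference between CRS and control on the log2(TPM + 1) scale (points) with its 95% interval from limma (bars) for each member in B6 (blue) and BALB/c (orange); the copy is left out for B6, where it is at 0. Every interval crosses 0, and the widest reach from -0.43 to 0.44.

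The rest of the pump was compared between strains with a test, since its values had no part in choosing the set. The lists used were still chosen with earlier results of these data known. Of 13 V1 subunit genes, which form the ATP-splitting head and its stalks, 10 were tested, and none passed in any of the 6 contrasts. The strain contrasts called 4.73% of all tested genes in controls and 7.7% under CRS. In limma, 3073 and 3908 of the 16423 tested genes had an unadjusted p under 0.05 in these contrasts. Those counts for the CRS contrasts are given above. At that level, 1 of the 10 V1 genes passed for CRS in B6 and averaged over strains, and 0 in the other contrasts. It was Atp6v1c2, a C subunit form at 0.0803 to 3.49 TPM, with a log2 difference of 1.08 in B6 (limma adjusted p = 1). The median V1 difference between BALB/c and B6 was 0.06 in controls and 0.08 under CRS. The V1 genes outside the test were near 0: Atp6v1b1 was listed at 0 throughout, and Atp6v1e2 and Atp6v1g3 reached 0.177 and 0.0509 TPM. Of 4 other V0 genes, Tcirg1, an a subunit known from osteoclasts, and Rnasek, a small V0-associated protein, were tested and did not pass in any contrast. Tcirg1 had an unadjusted p under 0.05 in limma for CRS in BALB/c, the interaction and the strain contrast under CRS, where its log2 values were 0.38, 0.68 and 0.40. Atp6v0a4 and Atp6v0d2, forms known from kidney, reached only 0.575 and 0.0635 TPM. All 12 accessory, assembly and regulatory genes were tested, and none passed in any contrast; 1 of the 12, Vma21, had an unadjusted p under 0.05 in limma, for the strain contrast under CRS (-0.29). No vesicle transporter or lysosomal gene was called in the 4 CRS contrasts, and 0 had an unadjusted p under 0.05 in limma there.

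A list of vesicle transporter genes, which also held Sv2a and Sv2b, and a list of lysosomal genes were compared in the same way. Of 7 tested vesicle transporters, 1 was lower in BALB/c controls than in B6 controls, where 4.73% of all tested genes were called: Slc17a8, a vesicular glutamate transporter at 0.993 to 2.39 TPM in B6 and 0.0537 to 0.541 TPM in BALB/c (log2 difference -1.04, limma adjusted p = 0.0230). That call was lost without B6 control 2 or 3 or BALB/c control 9 or 10, with differences of -1.19 to -0.85 over all left-out libraries. The size depends on the pseudocount for so low a gene, at -2.38 with 0.1 TPM and -0.33 with 5 TPM added. Under CRS, 0 of the 7 were called by limma and 3 had an unadjusted p under 0.05. Of all 16423 tested genes, 3908 had such a p in that contrast, and nothing is read from this count. Slc32a1, the vesicular GABA transporter (-1.07, limma adjusted p = 0.0531), and Slc17a8 (-0.81, limma adjusted p = 0.0536) lay nearest to the threshold. Of 20 lysosomal genes, 2 were lower in BALB/c in controls and 2 under CRS, beside 4.73% and 7.7% of all tested genes called in either direction, and with so few genes nothing is read from these counts. Npc1, a cholesterol exporter of the lysosome, was lower in both, with log2 differences of -0.83 (limma adjusted p = 0.0141) and -0.67 (limma adjusted p = 0.0312). The first call was lost without B6 control 2 or BALB/c control 5, and the second in 9 of 20 alternatives, among them the removal of any 1 CRS library of either strain. Lamp1, a lysosomal membrane glycoprotein, was lower in controls (-0.43, limma adjusted p = 0.0454), a call lost in 16 of 20 alternatives. Lamp2, its relative, was lower under CRS (-0.45, limma adjusted p = 0.0392), a call lost in 11 of 20. The lysosomal median was -0.19 in controls and -0.06 under CRS, beside -0.10 and -0.06 over all tested genes.

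The genes whose profile over 12 libraries lay nearest to that of Atp6v0c, by root mean square distance of centred log2(TPM + 1), were Tspan13 (0.058), Gars (0.063) and Rab4b (0.067), against a spread of 0.17 (SD) in Atp6v0c itself. Nearest to the copy were Rps3a2 (1.34), Eno1b (1.44) and Tpm3-rs7 (1.72), against its SD of 4.73. These 3 were picked for likeness to a profile low in B6 and high in BALB/c, so they share that pattern by choice. Eno1b stood at 1.32 to 3.21 TPM in B6 and 262 to 303 TPM in BALB/c. The copy and the sum also chose the set, so the genes nearest to them are a description. Nearest to the sum were Glrx (0.098), Vps52 (0.11) and Pla2g6 (0.11), against an SD of 0.33.

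CACGTG, an E-box, is the core of the longer CLEAR element that is known from lysosomal gene promoters and is bound by TFEB. In the RefSeq promoter windows of GRCm38.p6, from 250 bases before to 50 after a start site, CACGTG stood in 7.15% of 32851 windows on either strand, and among the members in Atp6v0b, Atp6v0d1 and Atp6v0e. The longer GTCACGTG, which contains it, stood in 2.25% of all windows and in those of Atp6v0b and Atp6v0d1. The 10-base palindrome that begins with these letters stood in 0.326% of all windows and in 0 of the 8 windows of members. Those 8 windows belong to 6 genes, 3 of them to Atp6v0c, and Atp6v0a2 and the copy were not analysed here. The sequences of Atp6v0b (chr4:117887280-117887579, minus strand) and Atp6v0d1 (chr8:105566015-105566314, minus strand) are shown because they hold the longer match, with CACGTG in capitals, 5′ to 3′ on the strand of the gene.
Atp6v0b: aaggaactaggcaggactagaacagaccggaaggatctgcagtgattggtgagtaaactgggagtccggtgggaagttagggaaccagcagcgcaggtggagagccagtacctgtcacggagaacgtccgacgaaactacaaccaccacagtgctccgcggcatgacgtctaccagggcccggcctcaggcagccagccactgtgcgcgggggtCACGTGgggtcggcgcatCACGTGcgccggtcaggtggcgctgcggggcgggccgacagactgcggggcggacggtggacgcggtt
Atp6v0d1: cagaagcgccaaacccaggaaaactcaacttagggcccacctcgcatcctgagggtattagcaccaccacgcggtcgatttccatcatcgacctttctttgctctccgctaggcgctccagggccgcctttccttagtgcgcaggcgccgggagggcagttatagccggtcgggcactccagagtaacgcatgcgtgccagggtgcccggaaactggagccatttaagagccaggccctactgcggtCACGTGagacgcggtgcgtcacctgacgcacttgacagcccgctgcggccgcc
Atp6v0b and Atp6v0d1 were among the 5 genes described above that peaked in the same library of most groups. The other 3, Atp6v0a1, Atp6v0c and Atp6v0e2, have no CACGTG in the windows searched. The only Atp6v0a1 window, chr11:101010148-101010447, begins after the annotated gene start at 101009452, so the sequence before that start was not searched. The Atp6v0e window also begins inside its gene, at 26676146 against 26663231 on chr17. A link between the motif and the shared peaks was not tested. A match of letters is a description and does not show binding.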

How the data were processed

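The authors deposited a single table of TPM per transcript row, with a gene name and 1 column per library; the unit was read from the values, which sum to 1000000 in each column. Per the submitters' processing notes, cutadapt 2.9 and Salmon were used with GRCm38; further settings were not given in the sources used here. Per the labels' protocols, libraries were stranded and poly(A)-selected, with paired 150 bp reads and about 6 Gb per sample. The 147902 rows were summed to 55678 names. Genes at 1 TPM or more in at least 3 libraries (16423) were fitted on log2(TPM + 1) with limma 3.58.1 in R 4.3.3: 4 group means, 8 residual degrees of freedom, eBayes with trend, Benjamini-Hochberg adjustment, called under 0.05. The fit was tested on simulated data. The sum of Atp6v0c and Atp6v0c-ps2 was fitted in place of its 2 rows. Adding 1 TPM understates changes of low genes.

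The members and lists were chosen with earlier results of these data known. All 8 members are named; of each list, called genes are named, up to 4 per contrast. The nearest profiles leave out names of the Gm, Rik and -ps kinds. Alternatives were pseudocounts of 0.1 and 5, no filter, a mean of at least 5 TPM, median-of-ratios scaling, rescaling without mitochondrial, Bc1 and 18S RNA, no trend, a replicate block, and leaving out each library. The length weightings were added after seeing the data. Labels do not state that animals came from separate litters or batches, so p-values measure only the spread between these samples.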

Additional observations from a re-analysis of the deposited data

How the results depend on the processing

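No V0 member was called in the CRS contrasts in which it could be tested, and no V1 subunit in either strain contrast, under any of 20 alternative settings. The strain difference of the sum kept its direction under these, at 0.40 to 0.68 in controls and 0.56 to 0.73 under CRS with a library left out. Weighting changed it: by annotated lengths it was 0.13 in controls and 0.22 under CRS, by shortened lengths 0.025 and 0.12, and without the copy -0.23 and -0.12. These 3 choices were made after seeing the data.

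Of 580 alternative CRS and interaction values of single members, 72 changed sign, and none passed the threshold (smallest adjusted p from limma 0.520). All values here are log2 differences. With the replicate block, the animal number as a term, signs of tested values changed for these. In B6, the values were 0.19 for Atp6v0a1, 0.0206 for Atp6v0b, 0.0678 for Atp6v0c, 0.0516 for Atp6v0d1, -0.10 for Atp6v0e, 0.00276 for Atp6v0e2. In BALB/c, the values were 0.20 for Atp6v0a2, 0.12 for Atp6v0d1, 0.0210 for Atp6v1d, -0.23 for Slc17a8. Averaged over strains, the values were 0.11 for the sum, 0.0568 for Atp6v0b, 0.12 for Atp6v0c, 0.0879 for Atp6v0d1, 0.0740 for Atp6v0e2, 0.0411 for Rnasek, 0.0154 for Atp6v1h, 0.0830 for Sv2b. Same-numbered libraries of the 2 strains had correlations of deviations of -0.24, -0.03 and -0.04, so the numbers were not taken as pairs; the block changed no count of called V0 or V1 genes. With median-of-ratios scaling, signs of tested values changed for these. In BALB/c, the values were -0.00800 for Atp6v0a1, -0.0311 for Atp6v0b, -0.0313 for Atp6v0c, -0.0580 for Atp6v0e2, -0.00425 for Rnasek. Averaged over strains, the values were -0.0254 for Atp6v0a1, -0.00968 for Atp6v0a2. With rescaling without mitochondrial, Bc1 and 18S RNA, signs of tested values changed for these. In BALB/c, the values were -0.0244 for Atp6v0e2. Averaged over strains, the values were -0.00314 for Atp6v0a1. With each library left out in turn, the ranges of tested results that changed sign were these. In B6, the values were -0.19 to 0.0987 for Atp6v0a1, -0.0798 to 0.21 for Atp6v0a2, -0.11 to 0.00540 for Atp6v0b, -0.22 to 0.0608 for Atp6v0c, -0.21 to 0.0570 for Atp6v0d1, -0.21 to 0.14 for Atp6v0e, -0.26 to 0.0206 for Atp6v0e2, -0.48 to 0.0447 for Oxr1. In BALB/c, the values were -0.0291 to 0.18 for Atp6v0a1, -0.14 to 0.0747 for Atp6v0a2, -0.0204 to 0.0753 for Atp6v0c, -0.0954 to 0.0456 for Atp6v0c-ps2, -0.0710 to 0.0292 for Atp6v0d1, -0.0266 to 0.0394 for Atp6v0e2, -0.0637 to 0.21 for Slc17a8. Averaged over strains, the values were -0.10 to 0.0358 for the sum, -0.0673 to 0.0756 for Atp6v0a1, -0.0596 to 0.0833 for Atp6v0a2, -0.0427 to 0.0175 for Atp6v0b, -0.0937 to 0.0452 for Atp6v0c, -0.12 to 0.0193 for Atp6v0d1, -0.14 to 0.0370 for Atp6v0e, -0.13 to 0.0117 for Atp6v0e2, -0.0423 to 0.0969 for Tcirg1, -0.0343 to 0.0219 for Rnasek. For the interaction, the values were -0.0461 to 0.24 for Atp6v0a1, -0.25 to 0.0404 for Atp6v0a2, -0.0314 to 0.25 for Atp6v0c, -0.0755 to 0.19 for Atp6v0d1, -0.21 to 0.14 for Atp6v0e, -0.0180 to 0.26 for Atp6v0e2. Between strains in controls, the values were -0.0271 to 0.30 for Atp6v1g2. The strain differences of 3 members in controls, given without a test, also crossed 0 with a library left out, at -0.00857 to 0.0822 for Atp6v0b, -0.11 to 0.16 for Atp6v0d1 and -0.19 to 0.0926 for Atp6v0e2. That of Atp6v0e2 was -0.0679 as deposited, 0.0582 with median-of-ratios scaling and 0.0262 with the rescaling. The cause of these changes was not tested beyond the change of samples or scale itself.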
